A study of Mus musculus with 62 samples.

Results

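White fat of mice carrying melanoma cells that cause wasting (CAC) was compared between week 6 and week 4 after injection. The rule takes every CAC library of these times, 5 at 6 weeks and 5 at 4 weeks, which is 10 of the 62 libraries of the series. The 6-week and 4-week CAC mice differ in the labels only by time. Mock-injected mice (Con) of the same weeks, 5 libraries each, give the change of tissue without tumour cells, and mice with melanoma cells that do not cause wasting (NCAC), also 5 each, give a second reference. All are female and 2 months old in the labels, and the tissue is white adipose tissue. The series text names athymic nude mice (NCI Ath/nude), which lack a thymus and most T cells, whereas the strain tag reads C57BL6/J, and the treatment tag reads cachectic melanoma cells for every library, mock included. The protocol text also speaks of LLC cells and of another time. Groups were therefore taken from the sample descriptions. The labels used here name no fat depot and no cell line, and do not say whether animals were pooled.

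Cachexia is the loss of fat and muscle that accompanies some cancers. The acute-phase response is a set of secreted proteins, made mainly by liver under the cytokine IL-6 and its relatives, that fat can also express. Glucocorticoids are adrenal steroid hormones of stress and fasting, and fat cells respond to them through the glucocorticoid receptor. White fat stores triglyceride and releases it as fatty acids by lipolysis, and leptin transcript usually follows the amount of stored fat.

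Each value is in TPM (a level per transcript length, which adds up to 1 fixed total per library). The number of reads behind a TPM table is unknown, so no counting error is given. The tissue label fits the markers: the 7 white adipocyte genes sum to between 61290 and 85910 TPM in CAC libraries at 6 weeks and between 47420 and 77220 TPM at 4 weeks. The 6 T cell genes sum to at most 3.84 TPM at 6 weeks and 6.19 TPM at 4 weeks, with Cd3d listed at 0 in 2 libraries of each time. Transcripts of other tissues were uneven. Skeletal muscle genes summed to 3142 TPM in replicate 2 at 4 weeks, against 1.91 to 46.9 TPM in the other 4 libraries of that week, and to between 36.5 and 806.6 TPM at 6 weeks. The 7 urothelial genes, which mark the lining of the bladder, summed to between 5.53 and 566.2 TPM at 6 weeks and between 3.41 and 396.1 TPM at 4 weeks, where replicate 2 was again highest. Mitochondrially encoded genes took 25.95% to 31.65% of the TPM at 6 weeks and 27.7% to 39.0% at 4 weeks. The parts these differences play in the results were not tested beyond the values given beside them.

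No gene passed the test between the 2 times. Of 14572 genes tested with limma, 0 had an adjusted p under 0.05 (0%), and the smallest adjusted p was 0.658. An unadjusted p under 0.05 was found for 656 genes in the direction of a higher level at 6 weeks (4.50%) and for 80 in the direction of a lower level (0.549%). A change of log2 1 or more in size was measured for 137 genes upward and 43 downward. The libraries are called biological replicates in the labels, and the p-values measure the spread between them. In these bulk samples, fewer cells of a type and less RNA per cell cannot be told apart.

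In 136 genes every 6-week library was above every 4-week library (0.933%), and in 12 every one was below (0.0823%). In mock tissue the same counts were 12 above (0.0823%) and 31 below (0.213%). The upward excess in CAC tissue depended on the scale. The log2 change was above 0 for 69.1% of the genes with TPM as deposited, with a median of 0.085 over all genes. Without the mitochondrially encoded genes the median was -0.018 and 45.5% of the genes were positive, and the counts without overlap were 31 above and 59 below. An unadjusted p under 0.05 was then found for 284 genes upward and 322 downward, and with median-ratio scaling for 356 upward and 318 downward. Small positive changes are therefore read below against 0.085. Groups named below as without overlap are so with TPM as deposited, and this need not hold on the other scales.

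The libraries at 4 weeks were unlike each other, and those at 6 weeks were more uniform. The SD of log2(TPM + 1) was larger at 4 weeks than at 6 weeks for 79.4% of the genes. Its median was 0.226 in CAC libraries at 6 weeks and 0.338 at 4 weeks. Mock tissue went the other way, with a median SD of 0.454 at 6 weeks and 0.282 at 4 weeks, and the SD was larger at 4 weeks for 18.7% of its genes. None of these differences in spread was tested.

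**Figure D1:**
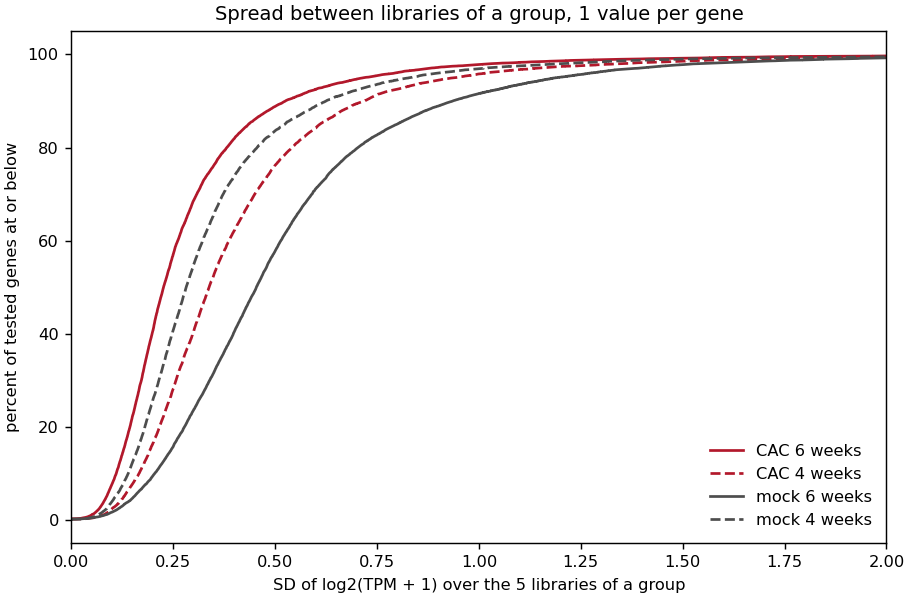
Cumulative distributions of the SD of log2(TPM + 1) over the 5 libraries of a group, with 1 value per tested gene. The x axis is the SD and the y axis the percent of genes at or below it. The CAC 6-week curve lies furthest left, with a median of 0.226, and the mock 6-week curve has the largest median, 0.454.

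The acute-phase genes had the largest median change of the 19 pathway lists. All 24 tested members were higher on average at 6 weeks, with a median log2 change of 0.99 against 0.085 for all genes, and 0 were called. In 11 of the 24 the unadjusted p was under 0.05. All 24 were also positive on both other scales tried. Averaged over the list on the log2 scale, the 6-week libraries had 6.69, 5.45, 5.90, 5.75 and 5.30, and the 4-week libraries had 4.11, 5.36, 4.48, 5.01 and 4.05. Only replicate 2 at 4 weeks reached the 6-week range, just above the lowest 6-week library. The mock libraries had between 3.45 and 4.74 at 6 weeks and between 3.54 and 3.88 at 4 weeks, so every CAC library at 4 weeks was already above every mock library of its week. At 2 weeks the CAC libraries had between 3.68 and 3.93, and at 8 weeks between 4.26 and 7.20.

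**Figure D2:**
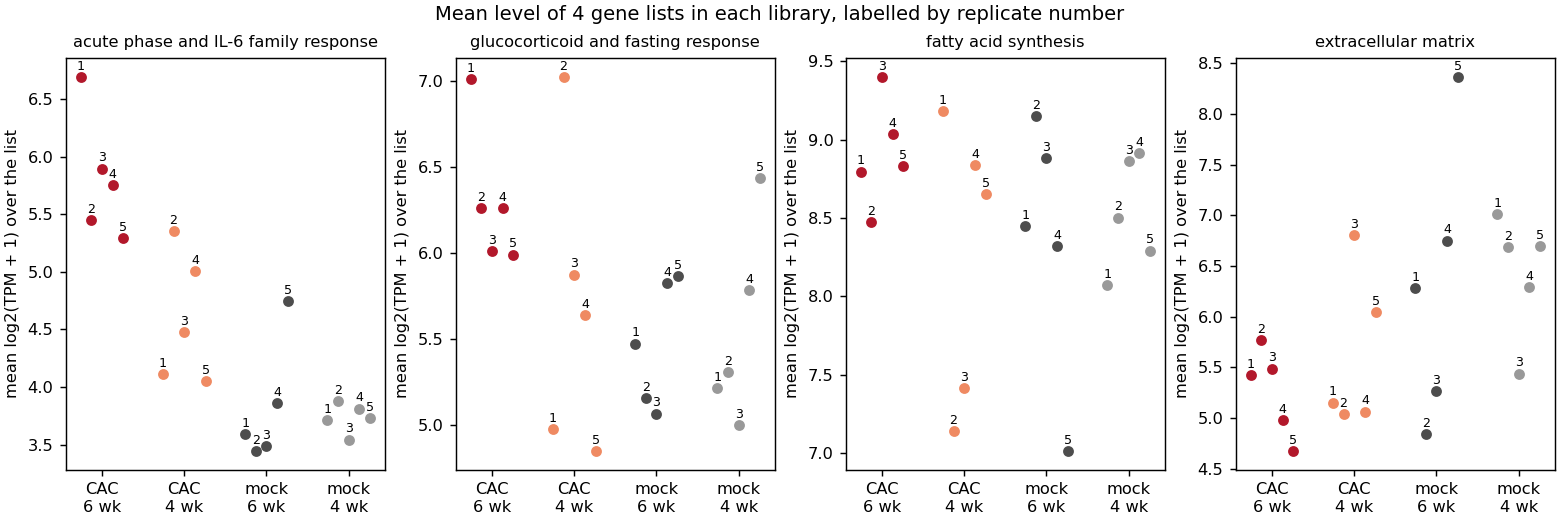
Mean log2(TPM + 1) over the tested genes of 4 lists in each library (y axis), by group (x axis), with the replicate number beside each point. For the acute-phase list the 5 CAC libraries at 6 weeks lie between 5.30 and 6.69 and those at 4 weeks between 4.05 and 5.36. Replicate 2 at 4 weeks is highest of its group in the first 2 panels and lowest in the fatty acid synthesis panel.

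Itih4 showed the largest difference among the acute-phase genes always reported. It encodes a heavy chain of the inter-alpha-trypsin inhibitor family, a secreted acute-phase protein, and lies at chr14:30886476-30902353 (GRCm38). It had 763, 236, 639, 728 and 484 TPM at 6 weeks, and 57.6, 329, 11.8, 203 and 27.2 TPM at 4 weeks. All 6-week libraries were high, whereas the 4-week libraries spread widely and replicate 2 lay inside the 6-week range. Mock libraries had 5.33 to 10.8 TPM at 6 weeks and 1.29 to 4.61 TPM at 4 weeks. The log2 change was 2.96 (SE 0.81) and the limma adjusted p was 0.88.

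Haptoglobin (Hp), the plasma protein that binds free haemoglobin, was abundant at both times. It had 10808, 10197, 13467, 8570 and 3311 TPM at 6 weeks, and 636, 12474, 5117, 3697 and 1261 TPM at 4 weeks. Its mock values were 175 to 896 TPM at 6 weeks and 383 to 717 TPM at 4 weeks. The 2 CAC groups overlapped, and the log2 change was 1.56 (SE 0.73). Serpina3n, a secreted inhibitor of serine proteases, had 3294, 1783, 2231, 1886 and 1031 TPM at 6 weeks, and 389, 2063, 674, 1018 and 268 TPM at 4 weeks. Replicate 2 was the highest 4-week library for it and for Hp. Lcn2, a lipocalin that captures bacterial iron carriers, had 103, 43.9, 67.4, 55.6 and 15.3 TPM at 6 weeks, and 6.14, 60.9, 7.07, 21.8 and 3.16 TPM at 4 weeks. Lrg1, a secreted leucine-rich glycoprotein of the acute phase, had 856, 766, 750.1, 819 and 464 TPM at 6 weeks. At 4 weeks it had 62.9, 602, 798, 349 and 164 TPM, and here replicate 3 was highest.

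Ceruloplasmin (Cp), a copper-carrying ferroxidase, was the only list member whose groups did not overlap with TPM as deposited. It had 49.9, 41.1, 51.8, 55.7 and 46.4 TPM at 6 weeks, and 39.2, 37.2, 38.2, 28.9 and 31.1 TPM at 4 weeks. Its log2 change was small, 0.48 (SE 0.12), with a limma adjusted p of 0.85. Saa3, a serum amyloid A gene that fat and macrophages express, had 168, 35.6, 85.9, 41.4 and 9.59 TPM at 6 weeks, and 57.7, 20.2, 13.5, 14.4 and 16.2 TPM at 4 weeks. Its lowest library was thus a 6-week one. Of the genes chosen after their values were seen, Saa2 had 36.4, 3.37, 19.9, 11.9 and 0.777 TPM at 6 weeks, and 0.09102, 2.51, 0.103, 0.822 and 0.0883 TPM at 4 weeks. Its near copy Saa1 had 1.37 to 33.3 TPM at 6 weeks and 0 to 3.67 TPM at 4 weeks. Reads of such copies, and of the Serpina3 family, may be split between them. Serpina3m had 48.3 to 84.1 TPM at 6 weeks and 8.02 to 61.7 TPM at 4 weeks, and Serpina3k had 61.0 to 204 TPM at 6 weeks and 3.12 to 84.05 TPM at 4 weeks. Fetub, a liver-secreted fetuin, had 7.66 to 19.3 TPM at 6 weeks and 0.263 to 10.5 TPM at 4 weeks. The liver markers themselves were low: the hepatocyte list summed to between 4.38 and 11.3 TPM at 6 weeks and between 5.31 and 13.2 TPM at 4 weeks, and Cyp3a11 was listed at 0 in all 10 libraries.

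The start regions of 3 acute-phase genes are shown, those that held a match among the genes searched. For them every CAC library at 6 weeks was above every mock library of that week. This also held for Hp, whose start region was not searched. The highest mock values were 10.8 TPM of Itih4, 269.5 TPM of Serpina3n and 7.89 TPM of Lcn2. Each run is 300 bases, from 250 before the annotated start to 50 after it, from RefSeq on GRCm38.p6 and on the gene's strand. Capitals mark matches on either strand to TTCNNNGAA (the core read by STAT factors such as STAT3), TTGCNNAA (a C/EBP core) or ACANNNTGT (a glucocorticoid receptor core).
Itih4, chr14:30886226-30886525, plus strand: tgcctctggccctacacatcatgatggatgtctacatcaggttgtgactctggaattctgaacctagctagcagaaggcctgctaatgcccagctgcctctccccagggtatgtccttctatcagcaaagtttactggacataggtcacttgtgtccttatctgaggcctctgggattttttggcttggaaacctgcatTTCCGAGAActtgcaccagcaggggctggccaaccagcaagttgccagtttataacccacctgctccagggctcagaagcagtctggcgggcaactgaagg
Serpina3n, chr12:104406458-104406757, plus strand: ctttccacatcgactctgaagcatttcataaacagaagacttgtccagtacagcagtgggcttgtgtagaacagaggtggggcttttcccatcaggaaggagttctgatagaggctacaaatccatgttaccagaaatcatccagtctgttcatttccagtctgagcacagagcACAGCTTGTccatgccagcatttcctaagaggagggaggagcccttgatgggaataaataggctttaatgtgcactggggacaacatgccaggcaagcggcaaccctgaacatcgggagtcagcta
Lcn2, chr2:32387690-32387989, minus strand: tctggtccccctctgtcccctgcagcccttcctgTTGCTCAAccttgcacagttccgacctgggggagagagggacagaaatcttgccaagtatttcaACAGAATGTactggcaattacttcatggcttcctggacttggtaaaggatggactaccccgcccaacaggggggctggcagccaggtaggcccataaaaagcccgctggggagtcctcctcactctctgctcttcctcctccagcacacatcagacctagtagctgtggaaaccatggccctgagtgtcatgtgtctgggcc

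The Itih4 window held 1 STAT match, the Serpina3n window 1 glucocorticoid receptor match, and the Lcn2 window 1 glucocorticoid receptor match and 1 C/EBP match. No match overlapped another. The windows of Lrg1 and Hsd11b1, searched in the same way, held none. For each gene only the first start listed was searched. The Hsd11b1 window, chr1:193242311-193242610, lies inside the gene interval given for it below, and no other start of that gene was searched. Among 32851 start regions of the same length, 8.30% held the STAT letters, 10.8% the C/EBP letters and 6.85% the glucocorticoid receptor letters. A match describes the letters and shows no binding.

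Genes of the glucocorticoid and fasting response were positive in 19 of 21, with a median log2 change of 0.36 and 0 called. A single member, Hsd11b1, had an unadjusted p under 0.05. The list means were 7.01, 6.26, 6.01, 6.26 and 5.99 at 6 weeks, and 4.98, 7.02, 5.88, 5.64 and 4.85 at 4 weeks, so replicate 2 at 4 weeks was level with the highest 6-week library. Mock libraries had 5.07 to 5.87 at 6 weeks and 5.00 to 6.43 at 4 weeks. Without replicate 2 at 4 weeks the median log2 change of the list was 0.80, and 7 members had an unadjusted p under 0.05. That library was the highest of its week for this list, so a larger median follows from leaving it out. The share of all genes at that p in this fit is not given here, so the 7 cannot be read as an excess. Over all genes, leaving out replicate 2 raised the counts without overlap from 136 to 518 above and from 12 to 55 below. Such counts cannot fall when a library is left out. No other library was left out for them, so they do not single out replicate 2.

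Fkbp5, which is induced by glucocorticoids and dampens signalling of their receptor, had 241, 65.7, 108, 81.8 and 95.4 TPM at 6 weeks. It had 15.7, 201, 25.5, 61.8 and 5.07 TPM at 4 weeks. Apart from replicate 2, every 4-week library was below every 6-week library. The log2 change was 1.74 (SE 0.80), with a limma adjusted p of 0.96. Mt2, a metallothionein that binds zinc and copper and responds to glucocorticoids and cytokines, had 2624, 766, 561, 736 and 399 TPM at 6 weeks. It had 28.7, 2391, 233, 361 and 21.9 TPM at 4 weeks, a range that covers all but the highest 6-week library. Its neighbour Mt1, chosen after its values were seen, had 3298, 1266, 1279, 1142 and 950.3 TPM at 6 weeks and 132, 3395, 337, 914 and 128 TPM at 4 weeks. Apod, a lipocalin that carries small lipids, had 217, 122, 99.2, 87.7 and 74.8 TPM at 6 weeks and 17.99, 179, 27.7, 29.4 and 19.1 TPM at 4 weeks. For it too the 4-week libraries other than replicate 2 lay below the 6-week group.

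Hsd11b1, the enzyme that regenerates active glucocorticoid inside cells, is at chr1:193221634-193264075. It had 227, 78.8, 215, 219.9 and 119 TPM at 6 weeks, and 75.6, 79.5, 31.2, 43.5 and 33.2 TPM at 4 weeks. The groups overlapped by a single pair of libraries, and the log2 change was 1.69 (SE 0.36, limma adjusted p 0.70). Other receptor targets moved less. Zbtb16, a transcription factor induced by glucocorticoids, had 21.8 to 91.7 TPM at 6 weeks and 9.796 to 60.5 TPM at 4 weeks. Tsc22d3, a leucine zipper protein of the same kind of response, chosen after its values were seen, had 35.8 to 99.8 TPM at 6 weeks and 14.6 to 92.6 TPM at 4 weeks. Pdk4, a kinase that holds back glucose oxidation in fasting, had 70.1 to 268 TPM at 6 weeks and 38.0 to 644 TPM at 4 weeks. Pck1, which in fat makes glycerol phosphate for re-esterification, had 276 to 1686 TPM at 6 weeks and 447 to 2671 TPM at 4 weeks, with a log2 change of -0.45 (SE 0.60).

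**Figure D3:**
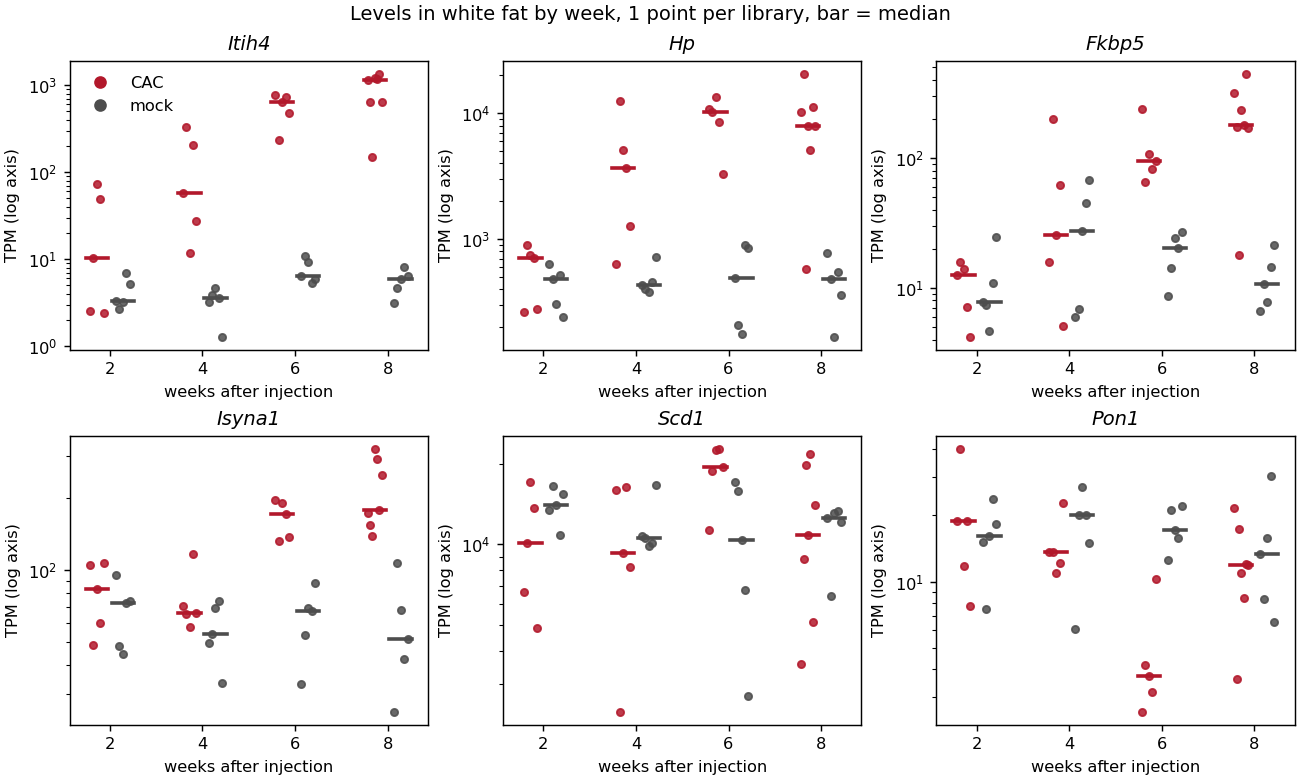
TPM on a log axis for 6 genes against weeks after injection, with 1 point per library and a bar at the median, CAC left of mock at each week. The CAC points of Itih4, Hp and Fkbp5 spread widely at 4 weeks, where replicate 2 has 329, 12474 and 201 TPM, and lie closer together at 6 weeks.

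The genes with the smallest p upward were mostly outside these 2 responses. Isyna1, which makes inositol phosphate from glucose phosphate and lies at chr8:70594373-70597290, had 196, 133, 191, 172 and 138 TPM at 6 weeks. It had 70.6, 65.4, 57.9, 117 and 65.9 TPM at 4 weeks, and 33.0 to 88.2 TPM and 33.4 to 74.4 TPM in mock tissue at 6 and 4 weeks. The 2 CAC groups did not overlap, the log2 change was 1.16 (SE 0.19), and the limma adjusted p was 0.66. Kcnj15, an inwardly rectifying potassium channel, had 37.1, 23.7, 13.7, 26.4 and 9.72 TPM at 6 weeks and 8.91, 4.27, 4.36, 1.88 and 1.73 TPM at 4 weeks, again without overlap. Its log2 change was 2.17 (SE 0.41). Apoc1, an apolipoprotein of lipid particles that macrophages and liver secrete, had 1178, 790.3, 1033, 1116 and 1166 TPM at 6 weeks and 358, 706, 379, 572 and 576 TPM at 4 weeks. The row Apoc2_1, a symbol with a numeric suffix whose transcript the files do not define, had 16.8 to 40.2 TPM at 6 weeks and 3.51 to 11.4 TPM at 4 weeks, without overlap.

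Ccl8, a chemokine that attracts monocytes, had 82.4, 257, 339, 239 and 255 TPM at 6 weeks and 76.5, 75.4, 64.5, 88.4 and 61.6 TPM at 4 weeks. Replicate 1 at 6 weeks stayed inside the 4-week range and the other 4 were above it. Mock tissue had 2.697 to 79.03 TPM at 6 weeks and 3.47 to 12.99 TPM at 4 weeks, so both CAC groups were above the mock group of 4 weeks. Fmo1, a flavin-containing monooxygenase, had 279 to 379 TPM at 6 weeks and 108 to 289 TPM at 4 weeks. Cela1, an elastase on the pancreas marker list, had 12.99 to 48.9 TPM at 6 weeks and 4.49 to 13.98 TPM at 4 weeks. Of the 2 pancreas genes tested, 1 was positive and 1 negative, and Cpa1 and Cel were listed at 0 in every 6-week library. Rilp, an effector of the lysosomal GTPase Rab7, had 15.5 to 24.98 TPM at 6 weeks and 12.98 to 14.95 TPM at 4 weeks. Sectm1a, chosen after its values were seen, was low but did not overlap, with 1.18 to 3.81 TPM at 6 weeks and 0.149 to 0.791 TPM at 4 weeks.

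Downward, Pon1 had the smallest p. It encodes paraoxonase 1, an enzyme carried by high-density lipoprotein, and lies at chr6:5168090-5193946. It had 2.57, 4.17, 3.71, 3.16 and 10.3 TPM at 6 weeks, and 13.6, 13.6, 10.9, 12.2 and 22.9 TPM at 4 weeks, and every 6-week library was below every 4-week library. Mock libraries had 12.5 to 22.1 TPM at 6 weeks and 6.10 to 27.03 TPM at 4 weeks. The log2 change was -1.52 (SE 0.30) and the limma adjusted p was 0.66. Amotl2, of the angiomotin family, had 11.7 to 29.8 TPM at 6 weeks and 33.5 to 63.7 TPM at 4 weeks, and Cd55, which protects cells from complement, had 8.91 to 13.6 TPM at 6 weeks and 13.7 to 32.6 TPM at 4 weeks. Neither overlapped. F3, tissue factor of coagulation, had 16.2 to 35.8 TPM at 6 weeks and 25.7 to 46.1 TPM at 4 weeks. Lyz1, a lysozyme with a near copy in Lyz2, had 1.38 to 7.83 TPM at 6 weeks and 6.76 to 50.2 TPM at 4 weeks.

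Red blood cell transcripts were lower at 6 weeks in all 5 tested members, with a median log2 change of -1.81. Each of the 5 had an unadjusted p under 0.05, where 0.549% of all genes did, and 0 were called. The list summed to 1018, 3708, 3058, 667.5 and 1678 TPM at 6 weeks and 10010, 5031, 6183, 3149 and 5752 TPM at 4 weeks. Mock tissue spanned 769.6 to 22970 TPM at 6 weeks and 3248 to 8985 TPM at 4 weeks. Of these 4 groups the mock libraries at 6 weeks spread most. The median change of the list in mock tissue over the same weeks was -0.56. After subtraction of the mock change the median was -1.24, with 0 of 5 positive. Hbb-bs, a beta globin, had 272 to 1707 TPM at 6 weeks and 1360 to 5394 TPM at 4 weeks, and Hbb-bt had 46.3 to 289.6 TPM at 6 weeks and 228 to 942 TPM at 4 weeks. Hba-a1, an alpha globin, had 327 to 1616 TPM at 6 weeks and 991 to 2722 TPM at 4 weeks. Its log2 change was -1.52 (SE 0.46) in CAC tissue and -1.26 in mock tissue, and -0.26 (SE 1.02) after subtraction. Alas2, which starts haem synthesis in red cell precursors, had 4.05 to 19.5 TPM at 6 weeks and 15.97 to 62.9 TPM at 4 weeks. The amount of blood in each piece of fat was not tested.

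**Figure D4:**
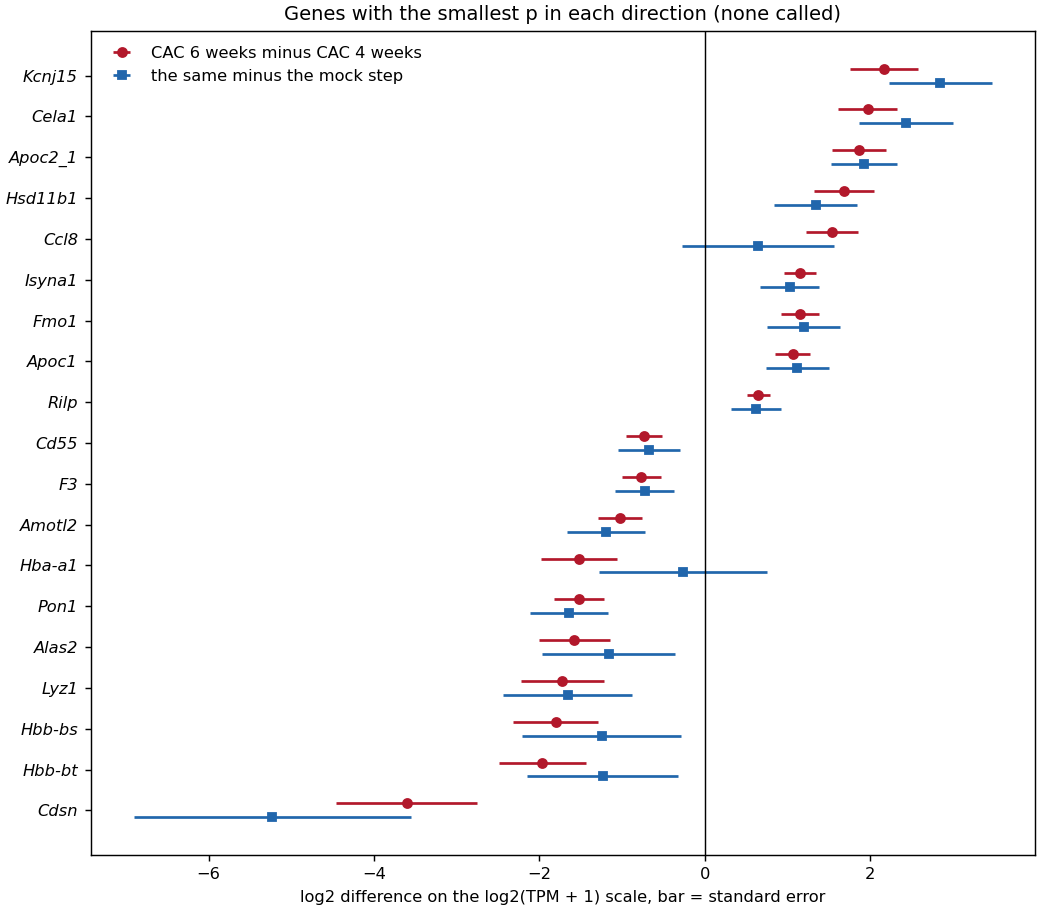
Log2 difference with its standard error for the genes with the smallest p, 9 upward and 10 downward: CAC 6 weeks minus CAC 4 weeks (circles) and the same minus the mock step (squares). None was called, and the x axis is on the log2(TPM + 1) scale. Kcnj15 lies at 2.17, Pon1 at -1.52 and Cdsn at -3.61, with wide errors for Cdsn.

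Fatty acid synthesis genes were positive in 16 of 16, with a median log2 change of 0.63, and 5 had an unadjusted p under 0.05. None was called, and all 16 stayed positive on both other scales, where 1 member had an unadjusted p under 0.05. The list means were 8.80, 8.47, 9.40, 9.03 and 8.83 at 6 weeks, and 9.18, 7.14, 7.42, 8.84 and 8.65 at 4 weeks. Replicates 2 and 3 at 4 weeks were low and the other 3 lay inside the 6-week range. Without replicate 2 at 4 weeks the median was 0.34. Scd1, the desaturase that makes oleate, had 11346, 18892, 22621, 22726 and 19514 TPM at 6 weeks, and 15955, 2360, 9252, 16384 and 8191 TPM at 4 weeks. Fasn, fatty acid synthase, had 3341 to 5696 TPM at 6 weeks and 757 to 6198 TPM at 4 weeks. Mlxipl, a glucose-responsive transcription factor of this pathway, had the smallest p of the list, with 87.0 to 183 TPM at 6 weeks and 46.8 to 100.2 TPM at 4 weeks. Acly, which supplies acetyl-CoA, chosen after its values were seen, had 755 to 2050 TPM at 6 weeks and 171 to 2103 TPM at 4 weeks. Cholesterol synthesis was positive in 12 of 14 with a median of 0.28, and in 9 of 14 without mitochondrially encoded genes.

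Lipolysis genes gave no common direction. Of 15, 8 were positive, with a median log2 change of 0.04 that lies below that of all genes. Pnpla2, the first triglyceride lipase, had 2049 to 3035 TPM at 6 weeks and 1571 to 2489 TPM at 4 weeks. Its activator Abhd5 had 203 to 279.5 TPM at 6 weeks and 146 to 229 TPM at 4 weeks. Lipe, hormone-sensitive lipase, had 464 to 1103 TPM at 6 weeks and 521 to 839.6 TPM at 4 weeks. Azgp1, a secreted glycoprotein known for mobilizing lipid, was scarce, with 1.57 to 12.5 TPM at 6 weeks and 0.274 to 5.22 TPM at 4 weeks. Fatty acid uptake and triglyceride synthesis was positive in 9 of 14 with a median of 0.05, and Gpd1, which makes the glycerol backbone, had 1957 to 3383 TPM at 6 weeks and 1400 to 2584 TPM at 4 weeks.

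Oxidative phosphorylation genes were positive in 18 of 18, with a median log2 change of 0.23, and in 15 of 18 on each of the other scales. The 3 members with an unadjusted p under 0.05 became 0 on both. Atp5a1, a subunit of ATP synthase, had 1294, 1085, 1134, 1123 and 1186 TPM at 6 weeks and 984, 1036, 786, 962 and 888 TPM at 4 weeks, without overlap. Fatty acid oxidation was positive in 13 of 17 with a median of 0.14, and in 9 of 17 with a median of 0.02 without mitochondrially encoded genes. Hadha, of the trifunctional protein, had 206 to 294 TPM at 6 weeks and 183 to 220.5 TPM at 4 weeks. Thermogenic genes, which mark heat-producing fat cells, were positive in 13 of 14 with a median of 0.49, and in 11 of 14 on each of the other scales. Ucp1, the uncoupling protein, had 1597, 381, 803, 125 and 369 TPM at 6 weeks and 25.5, 772, 434, 392 and 391 TPM at 4 weeks, and without replicate 1 at 4 weeks its log2 change was -0.02 in place of 0.81. Elovl3, a fatty acid elongase of brown and beige fat, had 116 to 394 TPM at 6 weeks and 15.2 to 142 TPM at 4 weeks. Mock libraries varied more, with 0.174 to 1704 TPM of Ucp1 at 6 weeks and 0.0776 to 1339.9 TPM at 4 weeks.

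Adipocyte identity genes were positive in 8 of 14, with a median of 0.10. Adipoq, the abundant adipocyte hormone adiponectin, had 2570 to 3751 TPM at 6 weeks and 2649 to 4266 TPM at 4 weeks. One of its receptors, Adipor2, had 485 to 687 TPM at 6 weeks and 399.6 to 496 TPM at 4 weeks. Genes of fat expansion had a median of -0.61 with 5 of 8 negative. Lep, the fat-mass hormone leptin, had 1.48, 53.2, 37.2, 4.28 and 3.902 TPM at 6 weeks and 21.9, 13.1, 284, 43.6 and 61.6 TPM at 4 weeks. For Lep, 3 libraries at 6 weeks were below every 4-week library and the other 2 lay among them. The log2 change was -2.18 (SE 1.01, limma adjusted p 0.96). Sncg, gamma-synuclein, which fat cells express, had 43.4 to 426 TPM at 6 weeks and 90.2 to 2498 TPM at 4 weeks, highest in replicate 3. Mock libraries had 34.5 to 453 TPM of Lep at 6 weeks and 70.5 to 759.6 TPM at 4 weeks.

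Extracellular matrix genes were negative in 21 of 25, with a median of -0.44 and 0 with an unadjusted p under 0.05. Without replicate 3 at 4 weeks the median was -0.15 and 9 of 25 were positive. Col1a1, a chain of type I collagen, had 26.7, 33.9, 36.3, 15.1 and 17.1 TPM at 6 weeks and 27.2, 15.4, 128, 24.4 and 88.1 TPM at 4 weeks. Postn, periostin, had 29.6 to 56.4 TPM at 6 weeks and 42.7 to 121 TPM at 4 weeks. Markers of fibroblasts and adipocyte progenitors were negative in 7 of 8, with a median of -0.45, and Mfap5, a microfibril protein, had 1.81 to 7.73 TPM at 6 weeks and 5.79 to 23.3 TPM at 4 weeks. Proliferation genes were negative in 12 of 15 with a median of -0.24, at levels such as 0.0773 to 0.331 TPM of Ube2c at 6 weeks and 0.321 to 1.11 TPM at 4 weeks.

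Among immune genes, all 10 macrophage markers were positive, with a median of 0.43, and their sum was 576.7 to 1204 TPM at 6 weeks and 516.9 to 1295 TPM at 4 weeks. Adgre1, the macrophage antigen F4/80, had 8.23 to 20.4 TPM at 6 weeks and 8.97 to 18.4 TPM at 4 weeks, and Trem2, a lipid receptor of macrophages, had 1.68 to 6.64 TPM at 6 weeks and 1.44 to 2.69 TPM at 4 weeks. All 4 neutrophil markers tested were positive, and Csf3r, the receptor of granulocyte colony-stimulating factor, had 3.38 to 5.92 TPM at 6 weeks and 1.42 to 3.74 TPM at 4 weeks. Chemokines and cytokines were positive in 8 of 14 with a median of 0.11, close to that of all genes. Cxcl13, a chemokine of B cells, had 181, 31.3, 35.6, 101 and 37.8 TPM at 6 weeks and 7.19, 65.4, 7.06, 11.5 and 5.898 TPM at 4 weeks, where replicate 2 again stood inside the 6-week range. Cxcl9, a chemokine induced by interferon gamma, went the other way, with 3.18, 6.48, 3.41, 4.399 and 6.18 TPM at 6 weeks and 25.4, 4.73, 9.28, 7.66 and 16.6 TPM at 4 weeks. Interferon genes were positive in 11 of 14 with a median of 0.21, and in 8 of 14 on each of the other scales, and Oas2, an antiviral enzyme, had 7.04 to 13.9 TPM at 6 weeks and 1.43 to 8.24 TPM at 4 weeks.

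The remaining pathway lists had medians between 0.02 and 0.20. The unfolded protein response was positive in 12 of 13 with a median of 0.18, and Sdf2l1, an endoplasmic reticulum protein of that response, had 7.43 to 18.5 TPM at 6 weeks and 4.66 to 11.9 TPM at 4 weeks. Autophagy and atrogenes were positive in 10 of 12 with a median of 0.15, and Ctsl, a lysosomal protease, had 334 to 744 TPM at 6 weeks and 256 to 586 TPM at 4 weeks. Without mitochondrially encoded genes the unfolded protein response was positive in 9 of 13, and autophagy and atrogenes in 7 of 12. Insulin signalling and glucose uptake had a median of 0.20, and Insr, the insulin receptor, had 61.7 to 85.8 TPM at 6 weeks and 47.6 to 77.5 TPM at 4 weeks. The circadian clock had a median of 0.02, and Bhlhe41, a repressor of the clock, had 2.83 to 8.805 TPM at 6 weeks and 4.73 to 12.8 TPM at 4 weeks. Alb, the liver marker albumin, had 0.887 to 3.35 TPM at 6 weeks and 0.8704 to 10.4 TPM at 4 weeks. It was the only negative one of the 5 hepatocyte genes tested, whose median was 0.24, with 2 higher and 1 lower at an unadjusted p under 0.05.

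Marker lists of other cells and tissues were also counted. Urothelial markers were positive in 6 of 6 (median log2 change 1.58) and skeletal muscle markers in 7 of 7 (median 2.01), with unequal libraries as given above. Mammary epithelium was positive in 3 of 4 (median 0.58), endothelium in 6 of 7 (median 0.14), NK cells in 2 of 3 (median 0.30) and melanocyte genes in 3 of 4 (median 0.18). T cells were positive in 2 of 3 (median 0.01), and B cells in 3 of 6 (median -0.05). Mesothelium was positive in 1 of 7 (median -0.39), and the single eosinophil gene tested had a log2 change of -0.15. Melanocyte genes summed to between 9.56 and 20.2 TPM at 6 weeks and between 8.96 and 15.5 TPM at 4 weeks, and mock tissue had 8.86 to 15.9 TPM and 8.47 to 17.4 TPM at those weeks.

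**Figure D5:**
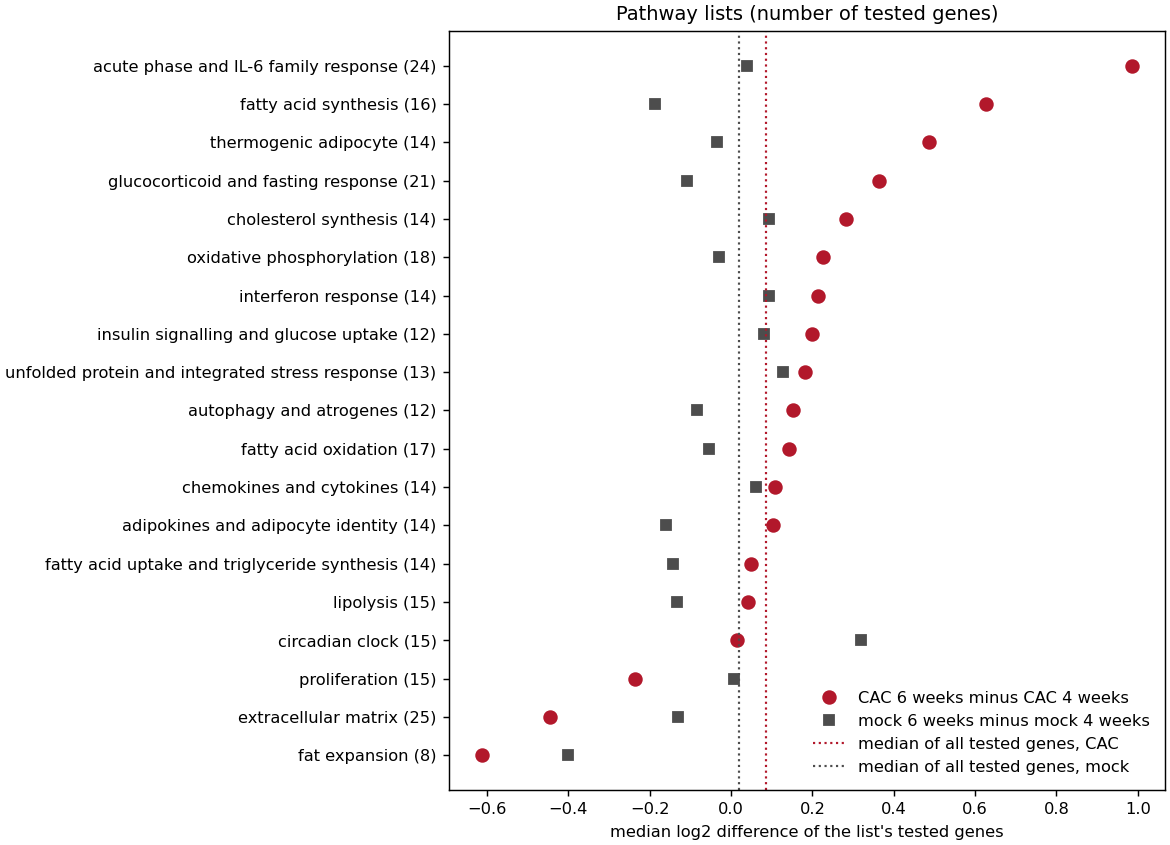
Median log2 difference of each pathway list, with the number of tested genes in brackets, for CAC 6 weeks minus CAC 4 weeks (circles) and mock 6 weeks minus mock 4 weeks (squares). Dotted lines show the medians of all tested genes. The acute-phase list lies at 0.99 in CAC tissue and 0.04 in mock tissue, and fat expansion is lowest in both.

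The CAC step was then set against the change of mock tissue over the same weeks. In mock tissue itself, 0 of 14575 genes were called (0%) and 185 had an unadjusted p under 0.05. After subtraction of the mock step, 0 of 14576 genes were called (0%), with a smallest adjusted p of 0.41. An unadjusted p under 0.05 was found for 266 genes in the positive direction (1.82%) and 33 in the negative (0.226%). The acute-phase list had 23 of 24 positive and a median of 0.96, close to its value before subtraction, with a mock step of 0.04. Single genes differed: Itih4 went from 2.96 to 1.96 (SE 0.89), with a mock step of 1.01. Hp went from 1.56 to 1.69 (SE 0.91), with a mock step of -0.14. Fatty acid synthesis had 16 of 16 positive and a median of 0.72, with a mock step of -0.19. The glucocorticoid list had 18 of 21 positive and a median of 0.46. The macrophage markers had a median of 0.64, and the matrix genes -0.34. Fat expansion had 4 of 8 positive and a median of -0.18, with a mock step of -0.40. Markers of fibroblasts and adipocyte progenitors had 3 of 8 positive and a median of -0.14, with a mock step of -0.305. Other lists changed sign on subtraction. Skeletal muscle markers had a mock step of 3.17 and a mock-adjusted median of -1.25, with 0 of 7 positive. The interferon list had 6 of 14 positive and a median of -0.04, the circadian list 5 of 15 and -0.30, and the hepatocyte list 2 of 5 and -0.43. In mock tissue at 6 weeks replicate 5 stood apart. Its hepatocyte genes summed to 384.8 TPM, against 7.22 to 28.1 TPM in the other mock libraries of that week. Its matrix genes summed to 15000 TPM (others 1709 to 5848) and its macrophage markers to 2956 TPM (others 205.8 to 1113). Mitochondrially encoded genes took 17.2% of its TPM (others 27.4% to 41.9%). The part this library plays in the list medians was not tested.

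Among the named genes, the mock-adjusted differences with the smallest p were those of H2-Q1 and H2-Q2. They are class I histocompatibility genes, which present peptides to T cells and differ between mouse strains. H2-Q1 (chr17:35320405-35325099) had 21.3, 21.7, 11.5, 20 and 21.1 TPM in CAC tissue at 6 weeks and 7.84, 14.4, 8.38, 6.68 and 10.1 TPM at 4 weeks. In mock tissue it had 5.14 to 14.02 TPM at 6 weeks and 11.3 to 18.9 TPM at 4 weeks, so the mock step ran the other way. The mock-adjusted log2 difference was 1.77 (SE 0.35, limma adjusted p 0.41). H2-Q2 gave 2.89 (SE 0.58), with 12.1 to 22.7 TPM in CAC tissue at 6 weeks and 3.79 to 13.7 TPM at 4 weeks, and with 0.239 to 8.02 TPM in mock tissue at 6 weeks and 10.4 to 22.6 TPM at 4 weeks. H2-D1 gave 1.51 (SE 0.35), with 985 to 1451 TPM in CAC tissue at 6 weeks and 638 to 951 TPM at 4 weeks. In mock tissue it averaged 667 TPM at 6 weeks and 1161 TPM at 4 weeks. Its mock step of -0.91 was larger in size than its CAC step of 0.60. The copies of this family are similar, and reads may be shared between them. Kcnj15 kept a difference of 2.85 (SE 0.62) and Apoc2_1 of 1.92 (SE 0.40), whereas that of Ccl8 was 0.64 (SE 0.92).

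In the negative direction, Pon1 had a mock-adjusted difference of -1.64 (SE 0.47). Cdsn, corneodesmosin of the skin (chr17:35552128-35557180), gave -5.23 (SE 1.68). It had 0.1502, 0.04798, 7.65, 0.0962 and 0.995 TPM in CAC tissue at 6 weeks and 28.4, 1.88, 58.3, 25.2 and 45.4 TPM at 4 weeks. In mock tissue it had 1.75 to 55.3 TPM at 6 weeks and 0.169 to 96.5 TPM at 4 weeks, so libraries of the same mock group also differed by far. H2-Q10, on the same stretch of chromosome 17, showed such a spread too, with 3.56, 2.53, 97.4, 4.41 and 3.11 TPM in CAC tissue at 6 weeks and 51.99, 2.75, 29.3, 35.4 and 59.6 TPM at 4 weeks. The labels give no genotype for single animals. Phkb, a subunit of phosphorylase kinase, gave -0.34 (SE 0.13) and Carnmt1, a carnosine methyltransferase, -0.38 (SE 0.15), both small.

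Against the step of NCAC tissue, 0 of 14577 genes were called (0%), with a smallest adjusted p of 0.20. An unadjusted p under 0.05 was found for 1279 genes in the positive direction (8.77%) and 66 in the negative (0.453%), and the median difference over all genes was 0.198. Mitochondrially encoded genes took 29.4% to 42.4% of the TPM in NCAC tissue at 6 weeks and 20.1% to 35.0% at 4 weeks. That range was higher at 6 weeks, whereas in CAC tissue it was lower. The part this plays in the one-sided counts was not tested. Hsd11b1 gave 2.51 (SE 0.50). Apoc2_1 gave 2.38 (SE 0.43). Trf, the iron carrier transferrin, gave 1.60 (SE 0.30), with 905 to 1948 TPM in CAC tissue at 6 weeks and 679 to 1126 TPM at 4 weeks. Scarb1, a receptor for high-density lipoprotein, gave 1.32 (SE 0.27), with 87.8 to 139 TPM at 6 weeks and 65.6 to 92.9 TPM at 4 weeks. Atp5g1, another ATP synthase subunit, gave 1.03 (SE 0.19), with 21.5 to 36.96 TPM at 6 weeks and 15.95 to 20.9 TPM at 4 weeks. In the negative direction were Cdsn at -6.21 (SE 1.58) and Ucp1 at -4.79 (SE 1.55). Ucp1 averaged 655 TPM in CAC tissue at 6 weeks and 403 TPM at 4 weeks, and 579 TPM in NCAC tissue at 6 weeks and 36.4 TPM at 4 weeks, so the negative value goes with a larger step in NCAC tissue. The thermogenic list had a median of -1.91 against the NCAC step, opposite in sign to its 0.49 in CAC tissue alone. Otop1, a proton channel, gave -2.60 (SE 0.71), Zfp703, a zinc finger protein, -1.24 (SE 0.36), and Ffar4, a receptor for long-chain fatty acids, -0.92 (SE 0.29). In CAC tissue Otop1 had 4.94 to 23.9 TPM at 6 weeks and 2.23 to 17.2 TPM at 4 weeks, Zfp703 16.9 to 58.4 TPM at 6 weeks and 39.3 to 62.5 TPM at 4 weeks, and Ffar4 12.8 to 31.96 TPM at 6 weeks and 20.03 to 37.7 TPM at 4 weeks. In NCAC tissue Otop1 averaged 15.8 TPM at 6 weeks and 0.875 TPM at 4 weeks. The same CAC libraries enter all 3 comparisons, which are therefore not independent.

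The steps on either side gave almost no calls either. Between CAC tissue at 4 and 2 weeks, 0 of 14574 genes were called (0%), and 366 had an unadjusted p under 0.05. Between 8 and 6 weeks, 1 of 14576 was called (0.00686%): Them6, a member of the thioesterase superfamily, fell, with a limma adjusted p of 0.032. This call was lost in a joint fit of all libraries, with the replicate block and in 11 of 12 fits that left out 1 library. It had 3.67 to 5.54 TPM at 8 weeks with a median of 4.76 TPM, and 10.3, 8.28, 11.2, 9.64 and 10.02 TPM at 6 weeks, while at 4 weeks it had 4.92 to 7.53 TPM. The 6-week libraries thus stood above both neighbouring weeks. The step from week 4 to 6 was also tested against the step from week 2 to 4, and 0 of 14576 genes were called (0%), with 170 at an unadjusted p under 0.05. A log2 difference of 1 or more between the steps was measured for 514 genes upward and 76 downward, with a median SE of 0.42. Recovery of changed genes was not simulated for this comparison, so the absence of calls does not show that the steps were alike. At 2 weeks Itih4 had 2.41 to 72.5 TPM and Hp 263 to 906 TPM in CAC tissue, and at 8 weeks 150.5 to 1336 TPM and 582 to 20472 TPM, so single libraries were low for Hp and others high at the latest time.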

How the data were processed

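White adipose RNA was sequenced from stranded mRNA libraries on an Illumina instrument, per the labels' protocols. Reads were placed on mm10, per the submitters' processing notes, and those sources name no aligner, counting tool or annotation. The deposited table is in TPM, holding 47643 symbols, and all libraries sum to the same total. TPM keeps no depth, so intervals and detection limits are not given.

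The members and gene lists were chosen with earlier results of these data known. Values were transformed to log2(TPM + 1), which understates changes of low genes. The 14577 symbols averaging 0.5 TPM or more across all 62 libraries were fitted with limma 3.58.1 in R 4.3.3 (mean-variance trend, robust prior) on the groups compared alone, two-sided, with Benjamini-Hochberg adjustment over all genes. Genes with an adjusted p below 0.05 were called. The fits were tested on simulated data with independent normal noise and the same SD for all groups of a gene. Changes were placed only in genes averaging log2 2 or more. The real groups had unequal spread and genes that move together, so the recovery below may not hold for them. For CAC 6 against 4 weeks, 70 of 100 genes changed by log2 1 and 91 of 100 changed by log2 2 were recovered among 14572, and 9 of 170 called genes were unchanged ones. For the step minus the mock step, 29 and 84 of 100 were recovered among 14576.

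The text names, per direction, the 10 genes with the smallest p in the CAC step and 5 in each adjusted step, averaging 10 TPM or more in the group with the higher level, called genes of the neighbouring steps up to 3, the member of each list with the smallest p, and 24 genes always reported. Predicted and mitochondrially encoded genes are skipped, genes outside the rule are marked where named, and a few that the rule names are not reported here. The 19 pathway and 17 marker lists hold 399 genes, 370 of them tested. Lists of eosinophil, T cell, NK cell, endothelium, mammary, melanocyte, mesothelium, urothelium and muscle genes are given as sums or counts without their leading gene. Coordinates come from GENCODE M21 on GRCm38 (mm10 in other naming), in which 102 of 103 named symbols were found. Alternatives were the pseudocount (0.1), the filter (none or 5 TPM), a joint fit, 2 other scalings, library weights, a urothelial covariate, libraries over 100 TPM of 4 urothelial transcripts left out, a replicate block, and each library left out in turn.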

Additional observations from a re-analysis of the deposited data

Results flagged for a closer look

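Within each group of 5 CAC libraries, 184 pairs of a named gene and a week were searched for a library far from the others on the log2 scale, and 21 were found. Chance gives about 1 in 20 such pairs, and genes that move together share a library.

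At 4 weeks, replicate 2 stood apart in 4 genes. It had 179.1 TPM of Apod, where the next library had 29.4 TPM, and 65.4 TPM of Cxcl13, where the next had 11.5 TPM. It was lowest for Cdsn, with 1.88 TPM against 25.2 TPM in the next, and for H2-Q10, with 2.75 TPM against 29.3 TPM. Replicate 4 at 4 weeks stood apart in 5 genes. It was high for Isyna1, with 117 TPM against 70.7 TPM in the next, and for Atp5g1, with 20.9 TPM against 17.2 TPM. It was low for Hba-a1 with 990.8 TPM, H2-D1 with 638.4 TPM and Ffar4 with 20.03 TPM. Replicate 1 at 4 weeks was low for Ucp1 with 25.5 TPM and Otop1 with 2.23 TPM, and high for Saa3 with 57.7 TPM. Replicate 3 at 4 weeks was high for Postn, with 120.6 TPM against 53.8 TPM in the next library.

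At 6 weeks, replicate 1 stood apart in 4 genes. It was low for Ccl8 with 82.4 TPM, Adipoq with 2570 TPM and Scd1 with 11350 TPM, and high for Mt1 with 3298 TPM, where the next library had 1279 TPM. Replicate 3 at 6 weeks was low for H2-Q1 with 11.5 TPM and high for H2-Q10 with 97.4 TPM, where the next had 4.41 TPM. Replicate 2 at 6 weeks was low for Rilp with 15.5 TPM, and replicate 5 at 6 weeks was low for Lrg1 with 463.7 TPM.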

How the results depend on the processing

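The count of 0 called genes between CAC tissue at 6 and 4 weeks held under 16 of 20 alternatives. A joint fit of all 62 libraries called 6 (Fetub, Apoc2_1, Saa2, Hsd11b1, Itih4 and Sectm1a, all higher at 6 weeks). Leaving out 1 library gave 0 to 2: without CAC 6 weeks replicate 1 Ccl8 was called, without CAC 4 weeks replicate 2 the count was 1, and without CAC 4 weeks replicate 4 Isyna1 and Fmo1. For the step minus the mock step, median-ratio scaling called 1 (H2-Q1), library weights 29, leaving out the urothelial libraries 1 (Saa2), and leaving out any 1 library 0. For the step minus the NCAC step, the joint fit called 2 (Hsd11b1 and Scarb1). The call of Them6 between 8 and 6 weeks was lost, with 0 calls, in the joint fit, with the replicate block and in 11 of 12 fits without 1 library, and leaving out CAC 6 weeks replicate 2 gave 2. The causes were not tested.

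The genes without overlap, 136 above and 12 below, became 31 and 59 without mitochondrially encoded genes, 46 and 45 with median-ratio scaling, and 518 and 55 without CAC 4 weeks replicate 2, in alternatives chosen after seeing the data.

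With the replicate block, 0 genes were called in the CAC step (570 at an unadjusted p under 0.05) and 0 in the step minus the mock step. Same-numbered CAC libraries of 6 and 4 weeks deviated together weakly (correlations -0.31, 0.24, 0.16, 0.15 and 0.11) and none correlated best with its own number, so the numbers do not pair the libraries.

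Of 4584 values of named genes under other settings, 4531 kept direction and side of the threshold, 20 passed it and 33 changed sign. In the CAC step, Carnmt1 (-0.03) was 0.036 without urothelial libraries and Pdk4 (0.23) -0.50 with the urothelial covariate, and leaving out 1 library gave -0.099 to 0.052 for Carnmt1, -0.022 to 1.29 for Ucp1 and -0.21 to 0.80 for Pdk4. Minus the mock step, library weights gave Hba-a1 0.17 and Adipoq -0.13. Without mitochondrially encoded genes Insr was -0.11 and Adipoq -0.064. Insr was -0.036 with median-ratio scaling, -0.024 with the urothelial covariate and -0.052 without urothelial libraries. The covariate gave Pdk4 -0.17, and leaving those libraries out gave Serpina3k -0.17. Leaving out 1 library gave -0.82 to 0.55 for Hba-a1, -0.38 to 0.015 for Ube2c, -0.038 to 0.15 for Insr, -0.029 to 0.19 for Adipoq, -0.38 to 0.30 for Pck1, -1.12 to 0.19 for Col1a1 and -0.13 to 0.85 for Adgre1. With 5 libraries a group and no read depth, small changes and low genes cannot be judged.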

Other observations

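Subunits of the proteasome, which degrades tagged proteins, were looked at after the values were seen, as counts only. Of 39 tested, 37 were higher on average in CAC tissue at 6 weeks than at 4 weeks, with a median log2 change of 0.24 against 0.085 for all genes. In 9 of the 39 the groups did not overlap, where 0.933% of all genes had every 6-week library above. In mock tissue 23 of 39 were positive over the same weeks and 0 were without overlap. On the other scales, with mitochondrially encoded genes left out or with median-ratio scaling, 33 of 39 were positive. Psmb3 had 102, 91.5, 91.2, 107 and 106 TPM at 6 weeks and 82.8, 71.1, 80.96, 74.3 and 76.5 TPM at 4 weeks. Psma7 had 107 to 122 TPM at 6 weeks and 83.4 to 103 TPM at 4 weeks, and Psmd3 had 58.8 to 98.6 TPM at 6 weeks and 46.1 to 58.1 TPM at 4 weeks. These 3 subunits are among the 9 without overlap. In CAC tissue at 2 weeks Psmd3 averaged 69.0 TPM, Psmb3 88.9 TPM and Psma7 97.2 TPM. The averages were 50.8, 77.1 and 91.2 TPM at 4 weeks and 72.7, 99.5 and 116 TPM at 6 weeks. None of the subunits passed the limma test.

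Class I histocompatibility genes with B2m were positive in 16 of 21 tested in CAC tissue and in 5 of 21 in mock tissue. The CAC share (76.2%) is near that of all genes, 69.1%. In mock tissue 8047 of all 14577 genes were positive. The median log2 change of the family was 0.25 in CAC tissue and -0.25 in mock tissue. The classical gene H2-K1 had 570 to 696 TPM at 6 weeks and 402 to 656 TPM at 4 weeks, and B2m, the shared light chain, had 2027 to 2351 TPM at 6 weeks and 1533 to 2380 TPM at 4 weeks. Both overlapped, unlike H2-D1. Of 2 genes of sugar metabolism chosen after their values were seen, Gyg, the primer of glycogen, had 413, 297, 268, 469 and 335 TPM at 6 weeks and 250.1, 266, 114, 208 and 174 TPM at 4 weeks. Ldha, lactate dehydrogenase A, had 917 to 1196 TPM at 6 weeks and 617 to 913 TPM at 4 weeks. Neither pair of groups overlapped, and neither gene was called.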
